A study of Sus scrofa with 24 samples.

Results

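Extracellular proteases and the proteins that block them were measured in the hearts of pigs with a chronic myocardial infarction. The genes described are the matrix metalloproteinases (MMP), their tissue inhibitors (TIMP), the ADAM and ADAMTS metalloproteinases, the serpins, the cathepsins named CTS plus one letter, the plasminogen genes PLAU, PLAUR, PLAT and PLG, and the cathepsin inhibitor CST3. They were picked by gene symbol, and MMP9, MMP12, CTSK and CTSH were left out. This rule was set with earlier results of these data known. The array carried 130 probes for 65 such genes, among 13831 probes for 6621 genes with a symbol. Of the 65 genes, 53 (105 probes) were well above background on at least 3 of the 24 arrays and were tested, against 6033 genes of all those with a symbol. The 12 that did not reach this level were ADAM30, ADAM3A, ADAM5, MMP1, MMP17, MMP20 (so named in the RefSeq table, but MMP25 in the array files), PLG, SERPINA1, SERPINA5, SERPINA7, SERPIND1 and TIMP-4, and no probe was found by symbol for PLAUR, CTSS or ADAM12.

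The samples were heart muscle of 9 domestic pigs, 1 Agilent porcine array for each of 24 tissue pieces. Every pig received 250 mg aspirin and 300 mg clopidogrel by mouth before a closed-chest infarct with reperfusion, and 100 mg aspirin and 75 mg clopidogrel daily afterwards. At 1 month the pigs were randomized, 8 to each arm, to catheter injections into the heart muscle of either the secretome of apoptotic peripheral mononuclear cells or the medium alone, and tissue was taken 1 month later. The groups analysed here are 3 pigs of the medium arm (pigs 10, 18 and 40, which the labels call not treated) which gave 3 arrays of the infarct core, 3 of the border zone and 2 of the normal region, and 6 pigs of the secretome arm (pigs 11 to 16), which gave 6, 6 and 4. The border zone was the injected zone, and the normal region was muscle of the same hearts away from the infarct, so it also came from infarcted, drug-treated animals. Pig 40 of the medium arm and pigs 12 and 13 of the secretome arm had no normal region array.

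As background, MMPs, ADAMTS enzymes and plasmin cut the proteins of the extracellular matrix, ADAM enzymes mostly release proteins from the cell surface, and cathepsins work largely in lysosomes. Each family has dedicated inhibitors: TIMPs for metalloproteinases, serpins for serine proteases such as the plasminogen activators, and cystatins for cysteine cathepsins. After an infarct this machinery takes part in clearing dead muscle and in building and reshaping the collagen scar.

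Between 61.5% and 75.6% of the 43603 probes on an array were well above background. The arrays were scanned on 2 days, called scan series 1 (pigs 12, 13, 16, 18 and 40) and scan series 2 (pigs 10, 11, 14 and 15), and each series held pigs of both arms. The border zone array of pig 40 stood apart: it had the lowest share of probes above background (61.5%) and the lowest 75th percentile of signal, 210 intensity units, where the other arrays of its series had 405 to 617. The regions differed in cell markers: in the infarct core against the normal region all 13 measured cardiomyocyte markers were lower (median log2 difference -2.18), and all 12 fibroblast markers (2.94), all 12 macrophage markers (1.59) and all 9 T and NK cell markers (1.29) were higher, each at an adjusted p under 0.05. The mean log2 level of the cardiomyocyte list was 8.43 to 9.03 in the normal region and 2.40 to 8.58 in the infarct core, the lowest in pig 40. That of the fibroblast list was 0.94 to 2.35 in the normal region, 0.69 to 3.52 in the border zone and 3.41 to 4.92 in the infarct core. These are pieces of whole tissue, so that more cells of a type and more RNA per cell cannot be told apart, and the part of the cell markers in the results below was not tested.

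Signals are given as log2 of the processed signal with the 75th percentile of each array set to 0, so they can be compared between arrays for 1 gene but not between genes. A gene is read from its brightest probe. Differences are log2 estimates ± SE from a limma model over all 24 arrays with pig as a random block, in which both arms have equal weight, and a gene rose or fell when its Benjamini-Hochberg adjusted p over all 34362 tested probes was under 0.05. For each gene the lowest, median and highest signal are given, from 6 arrays of the normal region, 9 of the border zone and 9 of the core. Nothing in the labels tells separate RNA preparations of a tissue piece apart, and the replicate is the pig.

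The infarct core held more transcript of most of these genes than the normal region. Of the 53 measured genes 29 rose and 3 fell, while 27.6% of the 6033 measured genes with a symbol rose and 30.7% fell. The median difference over the 53 was 0.79, against -0.07 over all of these genes, and 26 of the 53 differed by more than 2-fold. At an unadjusted p under 0.05 in limma there were 36 of the 53, against 63.2% of all genes with a symbol. In 16 of the 53 every infarct core array lay above every normal region array, which held for 9.78% of all genes with a symbol. Proteases and inhibitors were both among the genes that rose: 5 of 9 MMPs, 3 of 3 TIMPs, 4 of 9 ADAMs, 5 of 9 ADAMTS genes, 2 of 7 genes of the cathepsin group with CST3, and 6 of 12 other serpins. The 3 that fell were MMP7, MMP11 and ADAMTSL5. The 29 include ADAMTS16, which passed the filter on dim probes only through infarct core arrays, so that its count among the genes that rose follows from the filter. They include SERPINE3 as well, whose difference came mainly from the medium pigs, as described below. Under at least 1 other setting of the processing or model, including each scan series alone, 11 of these calls were lost: ADAM-9, ADAM17, ADAM8, ADAMTS16, ADAMTS4, MMP19, MMP7, SERPINB8, SERPINE3, SERPINI1 and TIMP-3. Without pig 10 the calls of ADAM17, TIMP-3 and also MMP11 were lost.

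**Figure D1:**
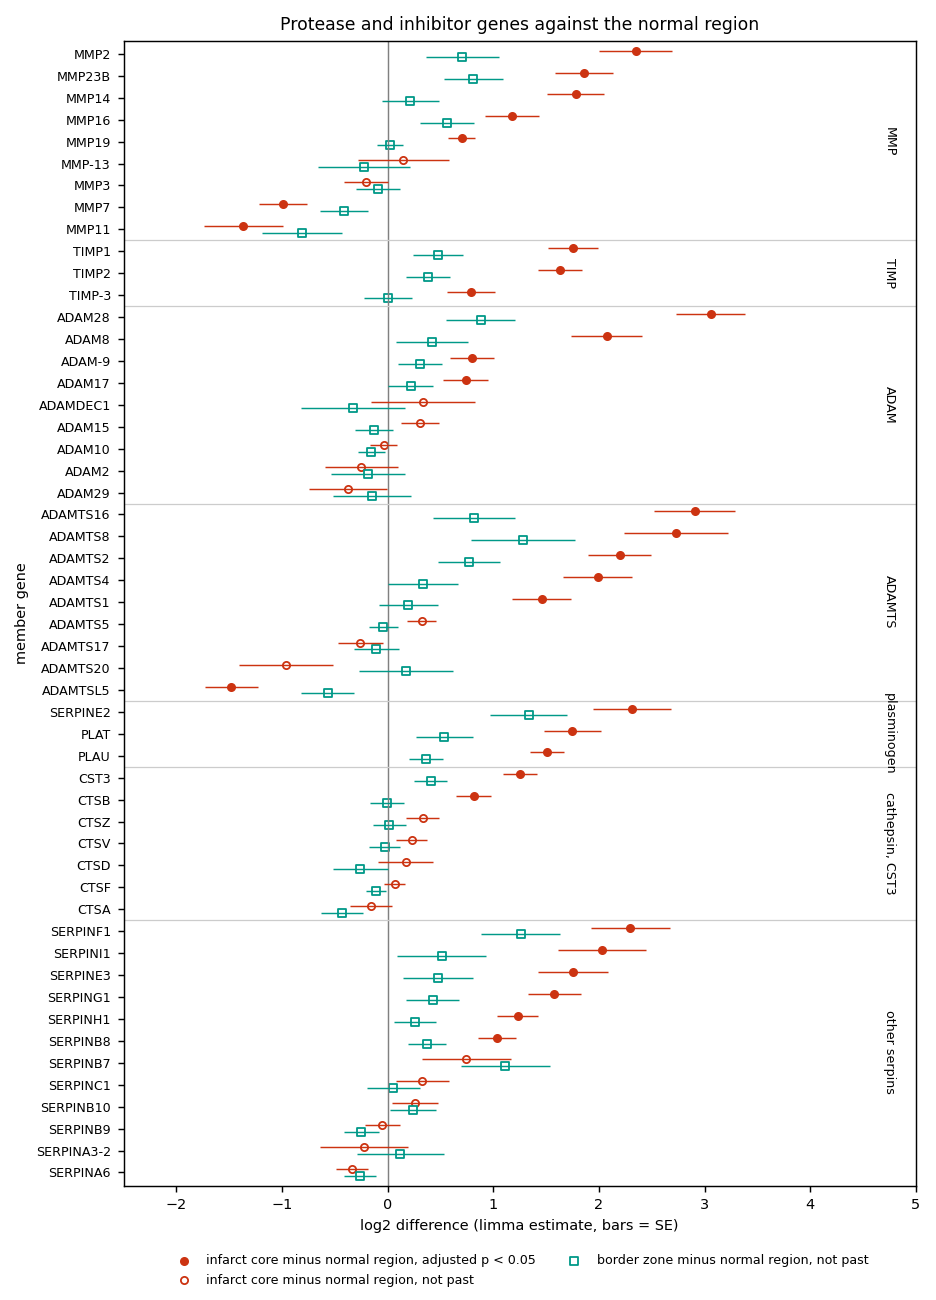
Log2 difference (x axis, limma estimate, bars are SE) of 52 of the measured genes (y axis, grouped by family) for infarct core minus normal region (circles) and border zone minus normal region (squares); filled symbols have an adjusted p under 0.05. Filled circles mark 28 genes to the right of 0 and 3 to the left, and no square is filled; the circle of ADAMTS16 is a fitted value, not a measured size.

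Among the MMPs, the gelatinase MMP2 had signals of 3.25, 4.78 and 5.28 (lowest, median, highest) in the normal region, 2.99, 5.08 and 5.95 in the border zone and 5.65, 6.27 and 7.62 in the infarct core. All infarct core arrays were above all normal region arrays, and the difference was 2.35 ± 0.34 (adjusted p = 1.12e-05), higher in 6 of 6 pigs with both regions. MMP14, the membrane-bound collagenase that activates the MMP2 proenzyme, had signals of 3.02 to 3.42 in the normal region and 3.43, 5.13 and 5.83 in the infarct core. Its groups also did not overlap, with a difference of 1.78 ± 0.27 (adjusted p = 1.48e-05). MMP23B, a membrane-anchored member, rose by 1.86 ± 0.28, MMP16, another membrane-type MMP, by 1.18 ± 0.25, and MMP19 by 0.70 ± 0.13, each higher in 6 of 6 pigs although their groups overlapped. The collagenase MMP-13 and the stromelysin MMP3 were near background, with 3 and 19 of 24 arrays above it, and their differences were 0.15 ± 0.43 and -0.20 ± 0.21, neither past the threshold.

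MMP11, also called stromelysin-3, went the other way. Its signals were -1.04, 1.22 and 2.14 in the normal region, -1.99, -0.15 and 1.99 in the border zone and -1.58, -0.98 and 0.11 in the infarct core. It was lower in the infarct core in 6 of 6 pigs, by -1.37 ± 0.38 (adjusted p = 0.00455), and 5 of 5 probes fell, by -1.42 to -1.17. The probes that begin at bases 582, 1048 and 1344 of the transcript named in the array design are shown because they sample separate stretches of this message and gave differences of -1.36, -1.42 and -1.17.
MMP11 (582): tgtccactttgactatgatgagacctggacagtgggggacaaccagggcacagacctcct
MMP11 (1048): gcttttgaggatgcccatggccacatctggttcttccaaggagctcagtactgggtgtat
MMP11 (1344): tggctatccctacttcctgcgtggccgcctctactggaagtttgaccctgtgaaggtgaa
MMP11 signal moved with the scan series. In series 1 it was -1.04 and 0.07 on the 2 normal region arrays and -1.58 to -0.98 on the 5 infarct core arrays, and in series 2 it was 1.13 to 2.14 on 4 arrays and -0.34 to 0.11 on 4, so that it was lower in the infarct core within both series. Without pig 10 the difference was -0.93, with an adjusted p of 0.0809. The epithelial matrilysin MMP7 fell by 0.99 on the log2 scale (SE 0.23, adjusted p = 0.000976) and was lower in 5 of 6 pigs, with signals of -3.91, -3.14 and -2.88 in the normal region and -5.00, -4.31 and -3.72 in the infarct core.

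The 3 measured TIMPs rose with the MMPs. TIMP1, a secreted inhibitor of most MMPs, had signals of 3.12, 3.93 and 4.31 in the normal region, 3.21, 4.10 and 4.96 in the border zone and 4.48, 5.15 and 6.26 in the infarct core. TIMP2, which both inhibits MMP2 and helps MMP14 to activate it, had signals of -0.29, 1.07 and 1.15 in the normal region, 0.27, 1.12 and 1.50 in the border zone and 1.74, 2.11 and 2.64 in the infarct core. For both genes every infarct core array was above every normal region array, and for TIMP2 also above every border zone array. TIMP1 was higher by 1.75 ± 0.24 (adjusted p = 4.88e-06) and TIMP2 by 1.64 ± 0.21 (adjusted p = 2.72e-06). TIMP-3, the matrix-bound inhibitor that also acts on ADAM17 and the aggrecanases, was higher by 0.79 ± 0.23 (adjusted p = 0.00657) in 6 of 6 pigs, with overlapping signals of -0.64 to 0.22 in the normal region and -0.23 to 1.61 in the infarct core. Its call was lost without pig 10 (0.68, adjusted p = 0.0568) and without the pig block (0.56, adjusted p = 0.225).
The other 2 TIMP1 probes gave larger differences, 2.19 and 2.21, than the brightest one. They are shown with the TIMP2 probe because the 2 of them share a run of 56 bases, so they are nearly 1 measurement, whereas the longest run either shares with the TIMP2 probe is the 11 bases in capitals.
TIMP1 (187): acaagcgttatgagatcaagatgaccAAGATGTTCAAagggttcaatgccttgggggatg
TIMP1 (183): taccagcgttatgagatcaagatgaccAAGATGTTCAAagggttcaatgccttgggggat
TIMP2 (234): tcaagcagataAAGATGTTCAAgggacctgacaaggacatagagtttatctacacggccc

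Among the ADAM genes, ADAM28, a protease of lymphocytes and epithelia, showed the largest difference of the 53 genes. Its signals were -4.35, -2.54 and -2.04 in the normal region, -4.77, -1.25 and -0.69 in the border zone and -1.03, 0.50 and 1.01 in the infarct core. The infarct core and normal region did not overlap, the difference was 3.06 ± 0.33 (adjusted p = 4.68e-07), and its second probe gave 2.94. ADAM8, expressed by myeloid cells, rose by 2.07 ± 0.34 (adjusted p = 3.35e-05) with wide signals of -3.23, -1.07 and 1.00 in the infarct core that overlapped those of the normal region (-3.78 to -2.21). ADAM-9 rose by 0.80 ± 0.21 and ADAM17, the sheddase of tumour necrosis factor, by 0.74 ± 0.21, each higher in 6 of 6 pigs, and the ADAM17 call was lost without pig 10 (0.70, adjusted p = 0.0626). ADAM10, the other main sheddase, had signals of -2.13 to -1.49 in the normal region and -2.54 to -1.42 in the infarct core and a difference of -0.04 ± 0.13. The remaining 4, ADAM15, ADAMDEC1, ADAM2 and ADAM29, had differences of -0.37 to 0.33, none past the threshold.

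The ADAMTS family, secreted enzymes that cut proteoglycans and process procollagen, had 5 genes that rose and 1 that fell. ADAMTS2, which removes the amino-terminal propeptide of fibrillar procollagens, had signals of -3.70, -3.49 and -2.74 in the normal region, -3.77, -2.57 and -2.30 in the border zone and -2.35, -1.64 and -0.34 in the infarct core, a difference of 2.20 ± 0.30 (adjusted p = 4.57e-06). ADAMTS8 went from -2.89, -2.04 and -0.92 in the normal region to -0.41, 0.93 and 1.26 in the infarct core, a difference of 2.73 ± 0.49 (adjusted p = 9.37e-05), and the aggrecanase ADAMTS4 from -4.59, -3.98 and -3.52 to -2.60, -2.27 and -1.45, a difference of 1.99 ± 0.33 (adjusted p = 3.92e-05). None of these 3 overlapped between the infarct core and the normal region. ADAMTS1, an aggrecanase and versicanase, rose by 1.46 ± 0.28 in 5 of 6 pigs. ADAMTS16 was well above background on 7 of the 9 arrays of the infarct core and on none from elsewhere, and was at least 2.74-fold higher in the infarct core than in the normal region, a bound given with no test because the filter selected it through the core. The fold of such a gene is the infarct core mean set against the dimmest signal still well above background on each normal region array, or the gene's own signal where that was higher. After normexp background correction neither ADAMTS4 (0.56, adjusted p = 0.12) nor ADAMTS16 passed. ADAMTSL5, a secreted relative without the protease domain, fell by 1.48 on the log2 scale (SE 0.25, adjusted p = 4.75e-05) in 6 of 6 pigs, from 0.62, 1.33 and 1.86 in the normal region to -0.89, -0.63 and 0.97 in the infarct core, where 2 arrays of scan series 2 overlapped the normal range. ADAMTS5, ADAMTS17 and ADAMTS20 had differences of 0.32 ± 0.14, -0.26 ± 0.21 and -0.96 ± 0.44, none past the threshold.

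**Figure D2:**
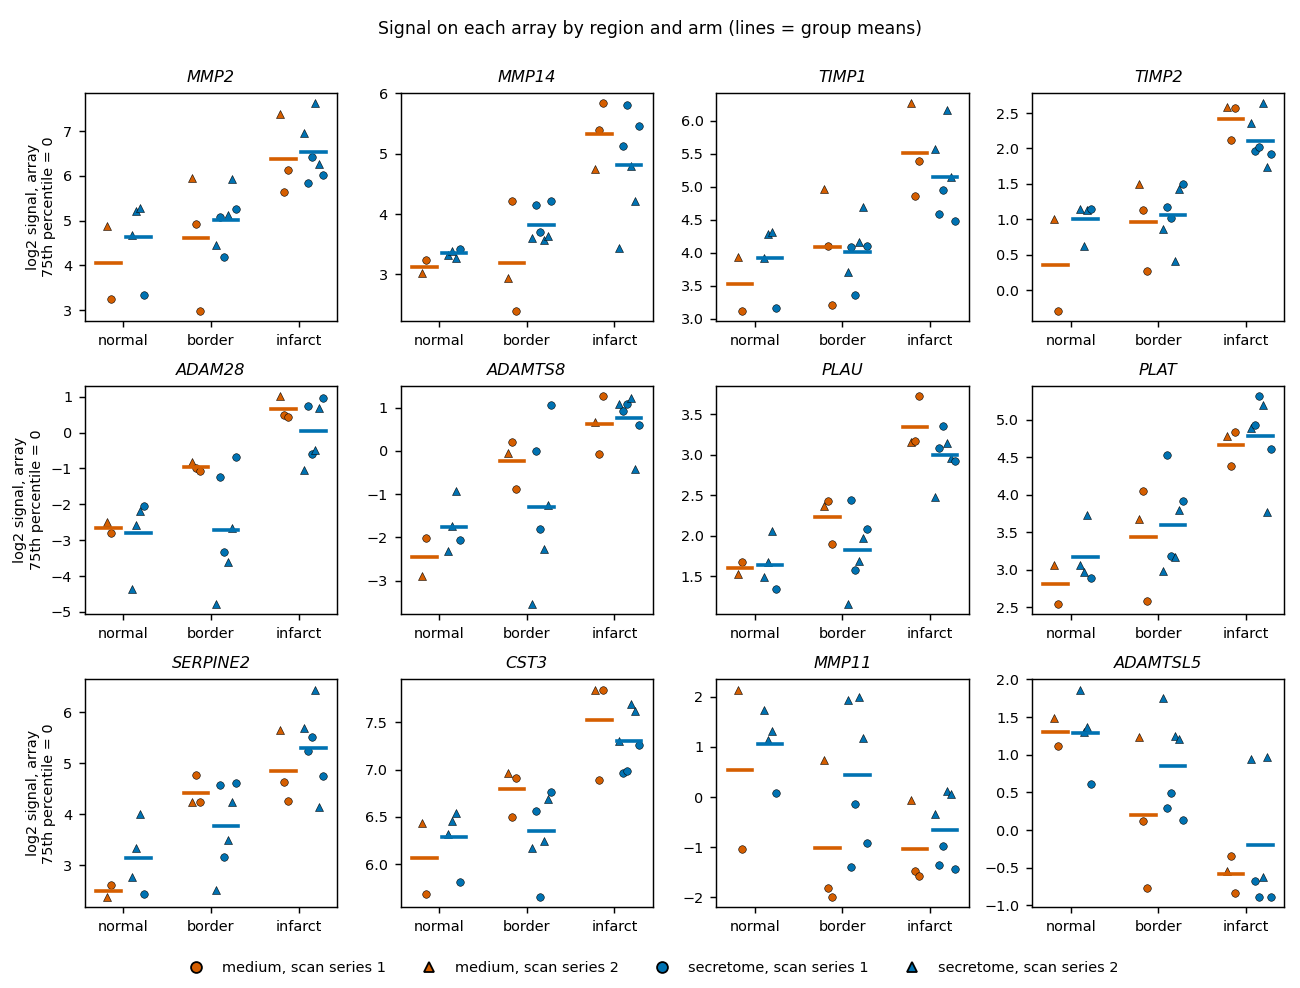
Log2 signal on every array (y axis, 75th percentile of the array set to 0) for 12 genes in the normal region, border zone and infarct core (x axis), coloured by arm, with circles for scan series 1, triangles for scan series 2 and lines for the group means. MMP2, MMP14, TIMP1, TIMP2, ADAM28, ADAMTS8, PLAU, PLAT, SERPINE2 and CST3 are higher on every infarct core array than on any normal region array, and the border zone arrays of each overlap those of the normal region.

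In the plasminogen system the activators PLAU and PLAT and the inhibitor SERPINE2 rose, and in each of these 3 every infarct core array lay above every normal region array. Urokinase, PLAU, which turns plasminogen into plasmin at the cell surface, had signals of 1.35, 1.60 and 2.06 in the normal region, 1.16, 1.97 and 2.44 in the border zone and 2.48, 3.15 and 3.72 in the infarct core. The difference from the normal region was 1.51 ± 0.16 (adjusted p = 4.95e-07). It is 1 of 2 genes, with TIMP2, whose infarct core arrays were also all above the border zone arrays, which held for 2.39% of the genes with a symbol. The tissue activator PLAT went from 2.55, 3.02 and 3.74 to 3.77, 4.83 and 5.31, a difference of 1.75 ± 0.27 (adjusted p = 1.92e-05), and its 6 probes gave 1.53 to 1.75. SERPINE2, protease nexin-1, which blocks thrombin and plasminogen activators, went from 2.38, 2.69 and 4.001 to 4.14, 5.23 and 6.44, a difference of 2.31 ± 0.37 (adjusted p = 2.53e-05).

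In the cathepsin group the inhibitor and 1 protease rose. CST3, cystatin C, had signals of 5.69, 6.38 and 6.54 in the normal region, 5.66, 6.56 and 6.96 in the border zone and 6.89, 7.31 and 7.85 in the infarct core, with no overlap between infarct core and normal region and a difference of 1.25 ± 0.16 (adjusted p = 2.41e-06). CTSB, a lysosomal cysteine protease, rose by 0.81 ± 0.16 (adjusted p = 0.000265) from 5.83, 6.55 and 6.68 to 6.59, 7.14 and 7.46, higher in 6 of 6 pigs, and 4 of 4 probes gave 0.81 to 0.95. The lysosomal proteases CTSA, CTSD, CTSF and CTSZ had differences of -0.16 ± 0.20, 0.17 ± 0.26, 0.07 ± 0.10 and 0.33 ± 0.15, none past the threshold. CTSD signal moved with the scan series, 4.29 to 5.58 in series 1 and 5.31 to 6.25 in series 2 in the infarct core. The gene the array calls CTSL1, named CTSV in the RefSeq table, had 10 probes with differences of 0.23 to 0.44: 7 passed the threshold, and the brightest (0.23 ± 0.15) did not.

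Of the 12 other serpins 6 rose and none fell. One of the 6, SERPINE3, was well above background on only 1 of 2 medium and 1 of 4 secretome normal region arrays, so the size of its rise is not measured. Its signal went from -6.06 to -2.02 in medium pig 10 and from -4.88 to -1.74 in medium pig 18. In secretome pigs it was -5.64 to -4.71 in the normal region and -6.51 to -4.37 in the infarct core. SERPINF1, pigment epithelium-derived factor, had signals of 3.51, 4.06 and 5.18 in the normal region, 3.26, 5.76 and 6.72 in the border zone and 5.67, 6.75 and 6.95 in the infarct core, a difference of 2.30 ± 0.37 (adjusted p = 3.31e-05). SERPING1, the C1 inhibitor of complement, went from 2.77, 4.01 and 4.30 to 4.60, 5.20 and 5.81, a difference of 1.58 ± 0.25 (adjusted p = 2.66e-05). Neither gene overlapped between the 2 regions, and nor did SERPINB8 (1.04 ± 0.18). SERPINH1, the collagen chaperone HSP47, which does not inhibit proteases, went from 0.07, 0.85 and 1.10 to 1.04, 1.53 and 2.67, a difference of 1.23 ± 0.20 (adjusted p = 2.73e-05) in 6 of 6 pigs. SERPINI1, neuroserpin, rose by 2.03 ± 0.42 (adjusted p = 0.000363) in 5 of 6 pigs, from -3.74, -2.52 and -0.06 to -2.17, 0.03 and 0.73. Of its 6 probes 5 gave 1.93 to 2.08 and the one that begins at base 623 gave 0.78, and that probe is shown because it stands apart from the rest.
SERPINI1 (623): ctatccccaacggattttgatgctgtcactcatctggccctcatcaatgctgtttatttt
SERPINB10 had the reverse disagreement, with 0.26 ± 0.22 for its brightest probe and 0.85, 1.23 and 1.34 for the other 3, each of which passed. Over the 22 genes with more than 1 measured probe, all probes of a gene had the same sign. The other serpins not past the threshold, SERPINA3-2, SERPINA6, SERPINB7, SERPINB9 and the antithrombin gene SERPINC1, had differences of -0.34 to 0.75.

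Other genes of the protease systems, from a separate list of 50 such genes, were more evenly divided than the genes above. Of its 24 measured genes 9 rose and 5 fell, where 27.6% of the genes with a symbol rose and 30.7% fell. The median difference over the 24 was 0.17. CD109 (2.81 ± 0.27), a membrane protein related to the protease inhibitor A2M, and F2, prothrombin (2.19 ± 0.45), had the highest estimates among those measured in both regions. HPSE, heparanase, was well above background on 7 of 24 arrays and at least 1.72-fold higher in the infarct core, a bound with no place in that order. The lowest were the membrane dipeptidase DPP4 (-2.85 ± 0.35), BSG (-1.36 ± 0.32), the MMP inducer basigin, and F3 (-1.01 ± 0.28), tissue factor.

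In the border zone no gene of the 53 was set apart from the normal region by the test. None passed in limma, where 0.613% of the genes with a symbol rose and 0.0166% fell, and 16 of 53 had an unadjusted p under 0.05 in limma, against 17.6% of those genes. The median difference was 0.22, against -0.03 over all genes with a symbol, and 34 of 53 estimates were positive. The smallest adjusted p values belonged to SERPINE2 (1.34 ± 0.37, adjusted p = 0.0999), SERPINF1 (1.26 ± 0.37, adjusted p = 0.123) and MMP23B (0.81 ± 0.28, adjusted p = 0.179). SERPINE2 had border zone signals of 2.52, 4.24 and 4.78 and MMP23B of -1.65, -0.65 and 0.11, against -2.03, -1.59 and 0.05 in the normal region, so the groups overlapped. Within scan series 1 alone SERPINI1 passed (1.62, adjusted p = 0.0406). Of the 12 fibroblast markers, 2 passed in the same comparison, 12 of 12 estimates were positive and their median was 1.22.

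Infarct core against border zone used 9 pigs with both regions, pig 40 among them. The border zone array of pig 40 also had the lowest border zone mean of the endothelial markers (0.65). Its signals of CTSA (3.71), CTSD (3.62), MMP2 (2.99), MMP14 (2.40), TIMP1 (3.21), TIMP2 (0.27) and CTSB (5.42) were the lowest of the border zone as well. Those of PLAU (1.90) and ADAM28 (-1.06) were not. The differences below include this array, and its part in their size was not tested. Of the 53 genes 31 rose and 3 fell, where 25.9% of the genes with a symbol rose and 26.2% fell, and the median difference was 0.66, against -0.02 over all of them. At an unadjusted p under 0.05 in limma there were 36, against 58.4%. By family 5 of 9 MMPs, 3 of 3 TIMPs, 5 of 9 ADAMs, 6 of 9 ADAMTS genes, 2 of 7 of the cathepsin group and 6 of 12 other serpins rose. The 31 include ADAMTS16, which passed the filter on dim probes only through infarct core arrays, so that its count here also follows from the filter. They include SERPINE3 as well, whose difference came mainly from the medium pigs. PLAU was higher by 1.15 ± 0.14 (adjusted p = 7.49e-06) and TIMP2 by 1.25 ± 0.18 (adjusted p = 2.42e-05), each in 9 of 9 pigs. MMP2 was higher by 1.64 ± 0.30, TIMP1 by 1.27 ± 0.21, CTSB by 0.82 ± 0.14 and ADAM28 by 2.18 ± 0.28, also each in 9 of 9 pigs, and MMP14 by 1.57 ± 0.23 in 8 of 9. ADAM15 (0.43 ± 0.15, adjusted p = 0.0248) and ADAMTS5 (0.36 ± 0.12, adjusted p = 0.0154) passed here and not against the normal region, a difference between comparisons that was not tested, since they share the infarct core arrays. ADAM15 was higher in 6 of 9 pigs and ADAMTS5 in only 4 of 9, the 3 medium pigs and 1 secretome pig.
Calls of 24 genes in this comparison were lost under at least 1 other setting, 18 of them within scan series 2 alone. Without pig 40, 26 genes rose, and the calls of ADAM-9, ADAM15, ADAM17, ADAMTS8 and SERPINF1 were lost; the part of its border zone array in them was not tested. Calls of 10 genes were lost when 1 pig was left out, among them SERPINE2 (0.73 without pig 10, adjusted p = 0.136), SERPINF1 (0.91 without pig 40, adjusted p = 0.0674), ADAMTS8 (1.13 without pig 40, adjusted p = 0.0749) and ADAM15 (0.28 without pig 40, adjusted p = 0.156). The genes that fell were ADAMTSL5 (-0.91 ± 0.22, lower in 9 of 9 pigs), MMP7 (-0.58 ± 0.20, lower in 8 of 9) and ADAMTS20 (-1.14 ± 0.38, lower in 6 of 9). Without the pig block none of these 3 passed, MMP7 was also lost without pig 10 (-0.35, adjusted p = 0.225), and normexp background correction turned the signs of MMP7 (0.05) and ADAMTS20 (0.07). ADAMTS20 was above background on 9 of 24 arrays.

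Changes of a protease were set against those of an inhibitor known to act on it, pig by pig, in gene pairs and 2 comparisons. The pairs were chosen after the values had been seen, so the exact and adjusted p values below do not carry their usual meaning. A value above 0 means that the signal of the protease rose more, or fell less, than that of the inhibitor. Probes can respond with different steepness, so only the difference in change is given. Each gene was read from its brightest probe, and the pairs were not computed with other probes. For TIMP1 the brightest probe had the smallest change. In infarct core against normal region the TIMP1 probes gave 1.75 to 2.21 and the MMP2 probes 2.35 to 2.43. The size of MMP2 minus TIMP1 thus depends on the TIMP1 probe used. None of the 16 exact two-sided sign-flip tests passed after adjustment over the 16, of which the 12 tests on 6 pairs are given here, and with 6 pigs the smallest p an exact test can give is 0.0312. In infarct core against normal region MMP2 minus TIMP1 was 0.59 ± 0.44 (SD, n = 6), above 0 in 6 of 6 pigs (exact p = 0.0312, adjusted p = 0.113), and CTSB minus CST3 was -0.51 ± 0.17 (SD, n = 6), below 0 in 6 of 6 (exact p = 0.0312, adjusted p = 0.113). Against the border zone MMP2 minus TIMP1 was 0.37 ± 0.35 (SD, n = 9), above 0 in 7 of 9 pigs (exact p = 0.0195, adjusted p = 0.113), while CTSB minus CST3 was -0.13 ± 0.53 (SD, n = 9; exact p = 0.508). CTSB minus CST3 ran there from -0.65 to 1.11 and was above 0 in 3 of 9 pigs. The highest value was that of pig 40, whose border zone array had the lowest border zone signal of CTSB (5.42). The part of that array was not tested. MMP2 minus TIMP2 was 0.78 ± 0.68 (SD, n = 6; exact p = 0.0625, adjusted p = 0.125) against the normal region, above 0 in 5 of 6 pigs, and 0.42 ± 0.51 (SD, n = 9; exact p = 0.043, adjusted p = 0.115) against the border zone, above 0 in 7 of 9. ADAM17 minus TIMP-3 was -0.15 ± 0.46 (SD, n = 6; exact p = 0.469) against the normal region and -0.27 ± 0.32 (SD, n = 9; exact p = 0.0352, adjusted p = 0.113) against the border zone, where it was below 0 in 8 of 9 pigs. ADAMTS4 minus TIMP-3 was 0.97 ± 0.66 (SD, n = 6; exact p = 0.0625, adjusted p = 0.125) against the normal region, but -0.33 in the authors' deposited values and -0.52 after normexp background correction. Against the border zone it was 0.83 ± 0.83 (SD, n = 9; exact p = 0.0234, adjusted p = 0.113), above 0 in 8 of 9 pigs, but -0.23 in the deposited values and 0.061 after normexp correction. MMP14, which TIMP2 also inhibits, changed unevenly against it from pig to pig: the difference was -0.04 ± 0.83 (SD, n = 6; exact p = 0.938) against the normal region, from -1.11 to 1.27, and 0.19 ± 0.96 (SD, n = 9; exact p = 0.555) against the border zone.

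**Figure D3:**
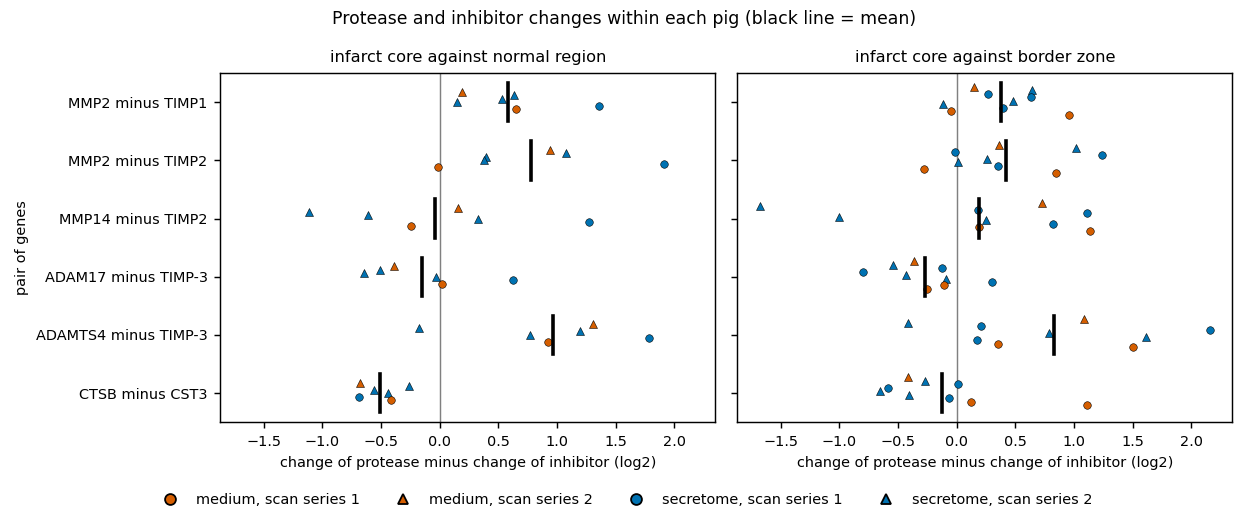
Change of a protease minus change of an inhibitor (x axis, log2) in each pig for 6 gene pairs (y axis), in infarct core against normal region (left, 6 pigs) and against border zone (right, 9 pigs), coloured by arm, with circles and triangles for scan series 1 and 2 and black lines for the means. Each gene is read from its brightest probe. MMP2 minus TIMP1 lies above 0 and CTSB minus CST3 below 0 in all 6 pigs on the left. MMP14 minus TIMP2 lies on both sides of 0 in both panels.

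The secretome and medium arms were randomized with 8 pigs to each, of which 6 and 3 were measured here. In the main fit 1 of the 53 genes passed between the arms, a call that several other settings lost, as given below. In the infarct core SERPINE3 was lower with secretome, where 0.0332% of the genes with a symbol were lower and none was higher, and 2 of 53 genes, against 5.47% of those genes, had an unadjusted p under 0.05 in limma. SERPINE3, a little-studied serpin, had infarct core signals of -2.02, -1.74 and -1.09 in pigs 10, 18 and 40 of the medium arm. In the secretome arm they were -5.19, -5.53, -4.37, -6.51, -4.87 and -5.35 in pigs 11, 12, 13, 14, 15 and 16. All 3 medium arrays were above all 6 secretome arrays, by a difference of -3.69 ± 0.60 (adjusted p = 0.0468). In the normal region the arms overlapped, at -6.06 and -4.88 with medium and -5.64 to -4.71 with secretome, and the border zone of medium pigs was -5.97, -2.84 and -3.62.
SERPINE3 has a single probe, shown because the arm difference rests on it alone; capitals mark the last codon, the only stop codon when the probe is read in the frame of its first base.
SERPINE3 (1167): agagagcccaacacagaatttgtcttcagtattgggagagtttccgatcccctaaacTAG
It was well above background on 13 of 24 arrays, among them 3 of 3 medium and 4 of 6 secretome infarct core arrays. Infarct core minus normal region signals were 4.04 and 3.1 in medium pigs 10 and 18 and -1.80 to 0.46 in the 4 secretome pigs. SERPINE3 was well above background on 1 of 2 medium and 1 of 4 secretome normal region arrays, so these differences are mostly taken against signals not well above background and are no measured sizes. The call was at the edge of the threshold. Leaving out 1 pig at a time kept the difference between -3.89 and -3.42, but the adjusted p was 0.0118 without pig 10 and 0.0536 to 0.872 without any 1 of the other 8, the highest without pig 40. It was 0.0475 within scan series 1 and 0.361 within series 2, 0.00539 when the model held the scan series, 0.237 when slide was the block, 0.102 after quantile normalization, and 0.323 after normexp correction, where the difference was -1.74. In the authors' deposited values the difference was -0.67 (adjusted p = 0.00363). Cell markers also differed between the arms in the infarct core, with none past the threshold: the mean macrophage list level was 3.36 to 4.17 with medium and 2.33 to 3.49 with secretome, and the cardiomyocyte list was 2.40 to 7.21 with medium and 6.20 to 8.58 with secretome. Their part in the SERPINE3 difference was not tested.

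**Figure D4:**
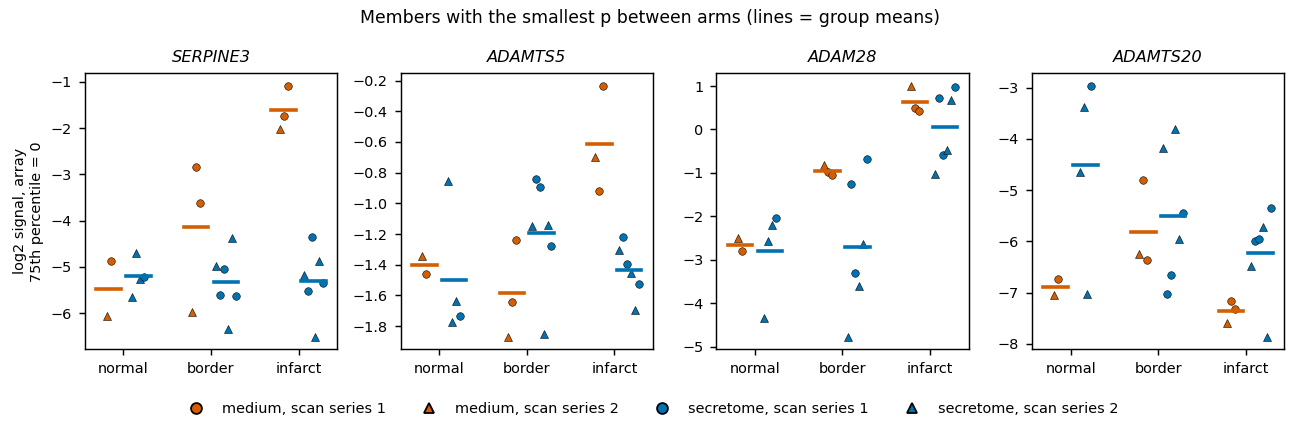
Log2 signal on every array (y axis, 75th percentile of the array set to 0) of SERPINE3, ADAMTS5, ADAM28 and ADAMTS20 in the 3 regions (x axis) by arm, with circles and triangles for scan series 1 and 2 and lines for the group means. The 3 medium infarct core arrays of SERPINE3 lie at -2.02 to -1.09 and the 6 secretome arrays at -6.51 to -4.37.

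No other gene passed between the arms. ADAMTS5, an aggrecanase named here after its values were seen, had infarct core signals of -0.70, -0.92 and -0.23 in medium pigs 10, 18 and 40 and of -1.69 to -1.22 in secretome pigs. The arms did not overlap, and the difference of -0.82 ± 0.25 was not past the threshold (adjusted p = 0.956). SERPINI1, like SERPINE3, also had no overlap between the arms there, at 0.28 to 0.73 with medium and -2.17 to 0.04 with secretome. How many of all genes with a symbol had arms without overlap was not counted, so the lack of overlap cannot be weighed. In the normal region 2 of the 53 genes, MMP14 and the near-background MMP-13, also had arms without overlap, both higher with secretome. The infarct core minus border zone difference of ADAMTS5 was 0.72 to 1.17 in the 3 medium pigs and -0.56 to 0.40 in the 6 secretome pigs. The test of that difference between arms gave -1.21 ± 0.24 with an adjusted p of 0.514, and no gene of the 53 passed this test in limma, while 4 of 53 had an unadjusted p under 0.05, against 6.08% of the genes with a symbol. In the border zone 0 of 53 genes passed in limma and 3 had an unadjusted p under 0.05, against 8.87% of the genes with a symbol: ADAM28 (-1.76 ± 0.59, adjusted p = 0.662), ADAM15 (0.69 ± 0.32) and MMP11 (1.46 ± 0.69). ADAM28 border zone signals were -0.81, -0.98 and -1.06 with medium and -4.77 to -0.69 with secretome, which overlapped. In the normal region, with 2 medium and 4 secretome arrays, 0 of 53 passed in limma and 1, ADAMTS20, had an unadjusted p under 0.05, against 1.43%. ADAMTS20 was well above background on 0 of 2 medium and 3 of 4 secretome arrays there, and its mean was at least 2.57-fold higher with secretome. The arms overlapped, at -7.04 and -6.73 with medium and -7.02 to -2.96 with secretome. For genes that rose in the infarct core, the arm difference there was 0.14 for MMP2 (95% confidence interval -1.17 to 1.44), -0.35 for TIMP1 (-1.25 to 0.54) and -0.31 for TIMP2 (-1.10 to 0.48). With 3 medium pigs the intervals are wide, and a p that misses the threshold does not show that the arms were alike.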

How the data were processed

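RNA (100 ng, RNA integrity number above 6) was labelled with Cy3 and hybridised to 24 one-colour Agilent arrays, per the labels' protocols. The scanner files hold spot intensity values that Feature Extraction 10.7.3.1 had background-subtracted, per the file headers. The deposited value table of the authors holds log2 values; limma 3.14.4 is named in the submitters' processing notes. Its 24 columns each matched their own array best (r = 0.728 to 0.825), and their medians were 7.68 to 7.69. How its values were centred is not given in the sources used here.

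The processed signal was taken as log2 after averaging spots of a probe, minus the 75th percentile of each array. Control spots and 1 to 27 outlier spots per array were left out. A probe was kept where the scanner called it well above background on 3 or more arrays (34362 of 43603). limma 3.58.1 in R 4.3.3 fitted 6 groups (arm by region) with pig as a random block (duplicateCorrelation, correlation 0.548), and p-values were Benjamini-Hochberg adjusted over all kept probes. The block correlation was 0.204 when the model also held the scan series, which the main model does not. The script was tested on simulated data. The pairing comes from the pig numbers in the labels: the 21 pairs of arrays from 1 pig had deviations from the group means that correlated at 0.583 on average, all above 0.1. Pairs from different pigs averaged 0.439 within a scan series and -0.454 across the series.

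Probes were named through accessions and gene IDs in the RefSeq table for Sscrofa11.1 or by the name in the array files: 8988 by accession, 1299 by gene ID, 50 by synonym and 3301 by a file name in the table, with 193 file names not in it, 39 probes with several genes and 29733 with none. Gene names of the array design can be old, and probe sequences and start positions are those of the array files. A gene was read from its brightest kept probe, and a fold for a gene not well above background in a whole group is a bound. The number of arrays limits the precision.

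Every measured gene could be named, except that 1 is counted among the 53 but not reported here. Full values were given for the 3 highest and 3 lowest called genes of each family in the region comparisons, the genes called between arms or else those with the smallest p, and a list of 29 genes. The members and lists were chosen with earlier results of these data known. Protease and inhibitor changes were compared within pigs by exact sign-flip tests, in pairs added after seeing the data. The alternatives, 23 settings in all, were quantile normalization, normexp background correction, other scalings and dim-probe filters, the deposited values, other blocks, scan series or slide in the model, each scan series alone, all probes of a gene, and each pig left out.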

Additional observations from a re-analysis of the deposited data

Results flagged for a closer look

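In 5 of the 159 sets of 4 to 10 arrays checked, 1 array lay far from the rest of its group by Dixon's test, and chance flags about 1 in 20 groups. In the normal region of the secretome arm (4 arrays), ADAM-9 was at -1.27 in pig 16, with the others at -0.31 to -0.17. SERPINC1 was at -1.48 in the same array of pig 16, with the others at -2.82 to -2.73. ADAMTS5 was at -0.86 in pig 11, with the others at -1.78 to -1.63, and TIMP2 was at 0.62 in pig 14, with the others at 1.13 to 1.15. Pig 16 is the only secretome pig of scan series 1 with a normal region array. The medium array of that region in the same series (pig 18) had -1.27 for ADAM-9 and -0.56 for SERPINC1, and the 4 arrays of series 2 had -0.31 to 0.07 and -2.82 to -2.70, so both values of pig 16 move with the scan series, whose part was not tested. In the infarct core of the secretome arm (6 arrays), SERPINF1 was at 5.67 in pig 15, with the others at 6.55 to 6.95.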

How the results depend on the processing

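Over the 53 genes, 7 comparisons and 23 other settings, 8081 values stayed on their side of the threshold, 121 were no longer past it and 51 newly passed. Another 2, past the threshold in the main fit, changed sign. Changes of sign among estimates not past the threshold were not counted. Without the pig block, 26 genes rose and 3 fell in infarct core against normal region and 23 rose and 0 fell against border zone; with pig as a fixed block the counts were 30 and 4, and 32 and 2. Leaving out 1 pig at a time gave 28 to 31 genes higher and 3 to 5 lower in infarct core against normal region, and 26 to 32 higher and 2 to 3 lower against border zone. The genes lower against the normal region were 5 with no filter on dim probes and 5 within scan series 1. In border zone against normal region 1 gene passed within scan series 1. Against the border zone 19 genes were higher after normexp correction and 15 within scan series 2, while 1 was lower after normexp correction, 1 in the deposited values, 1 with slide as the block and 5 with no filter. The single gene lower with secretome in the infarct core became 0 after quantile normalization, normexp correction, median centring, the filter at 12 arrays, slide as the block and within scan series 2, and 0 to 1 when a pig was left out. Normexp correction turned the signs of ADAMTS20 (0.072) and MMP7 (0.047) against the border zone. It also turned ADAMTS4 minus TIMP-3 against the normal region (-0.52), as did the deposited values (-0.33), in an alternative chosen after seeing the data. The cause was not tested. The median of all probes in infarct core against normal region was -0.05, and -0.21 after normexp correction. Signal near background limits MMP-13, ADAMTS16, ADAMTS20 and SERPINE3.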
